A study of Homo sapiens with 6 samples.

Results

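The genes described here encode proteins that write, erase or read acetyl groups on histones, together with the corepressor proteins that carry the erasers. They are 45 genes taken by symbol from a table of 14803 genes, and all 45 were found in it. Their transcripts were counted by RNA sequencing in MCF-12A, a human mammary epithelial line that is not tumorigenic. The first group of 3 libraries came from cells given octanoic acid (OA), a saturated fatty acid of medium chain length, for 24 h, and the other group of 3 came from cells given the vehicle, PBS, for the same time. All 6 libraries are of this 1 line, with no other label that sets them apart. Separate cultures are not stated for the 3 libraries of a group, and p-values therefore measure the spread between libraries, which may be technical.

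Acetyl groups are placed on histone lysines by acetyltransferases, which take them from acetyl-CoA, and are removed by zinc-dependent histone deacetylases (HDACs) and by NAD-dependent sirtuins. Bromodomains bind the acetylated lysines and bring other complexes to them. The class I HDACs work mostly inside the NuRD, SIN3, CoREST and NCoR complexes, whereas the class IIa HDACs have little activity of their own and act through MEF2 transcription factors and NCoR, and their entry into the nucleus is controlled by kinases and 14-3-3 proteins.

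Library totals ran from 47508208 to 49585010 counts in OA and from 43049972 to 59935521 in vehicle. Levels below are counts scaled by library total and TMM factor (CPM), and levels of different genes are compared only per kilobase of gene length (CPM per kb). All 10 epithelial markers were in the table, and their summed level was 5622 to 5848 CPM in OA and 8646 to 8913 CPM in vehicle. The lower sum came mostly from KRT5 (1015 to 1122 CPM in OA, 3863 to 3963 CPM in vehicle), KRT14 and ITGA6, while KRT17 (2241 to 2312 CPM in OA, 1445 to 1546 CPM in vehicle), EGFR, CDH1 and EPCAM were higher in every OA library. Summed markers of other cell types were higher in OA, though not every marker was. The sum of 15 listed of 21 hepatocyte markers was 13.0, 32.8 and 101.9 CPM in the OA libraries, against 6.78 to 11.7 CPM in vehicle, and OA replicate 3 stood apart. Sums were 105.7 to 107.9 CPM in OA and 62.0 to 77.4 CPM in vehicle for 5 of 8 fibroblast markers, with COL1A2, COL3A1 and LUM not listed. COL1A1 carried most of that difference (53.4 to 58.0 CPM in OA, 19.9 to 21.7 CPM in vehicle), whereas DCN overlapped between groups and DPT was lower in every OA library. The sums were 72.9 to 74.6 CPM in OA and 25.8 to 27.5 CPM in vehicle for 3 of 8 leukocyte markers, with PTPRC not listed, and CD68 carried most of the difference. For 4 of 7 endothelial markers they were 25.5 to 28.5 CPM in OA and 7.40 to 8.85 CPM in vehicle, with CDH5, VWF and EMCN not listed. CLDN5 carried that difference (20.1 to 23.9 CPM in OA, 1.28 to 1.76 CPM in vehicle), while PECAM1 was lower in every OA library and TEK overlapped. The part of such cells in the results below was not tested. Without OA replicate 3, the library that stood apart in the hepatocyte sum, 19 members were called higher and 22 lower. In a bulk sample, fewer cells of a type and less RNA per cell cannot be told apart.

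The comparison asks which histone acetylation genes differed between OA and vehicle. A gene was called when its adjusted p was under 0.01 by edgeR's quasi-likelihood test across all 14785 genes that passed the filter on low counts, and all 45 members passed that filter. In OA, 18 members (40%) were called higher and 21 (46.7%) lower, and 6 were not called. The background was close to this, with 43.3% of all tested genes called higher and 41.1% called lower. At least 2-fold changes were called higher in 6 of the 45 members, where the background was 22.3% of tested genes, and lower in 4 of the 45, where it was 12.3%. Both shares of the members were below those of all tested genes. The members had a median vehicle level of 47.9 CPM, against 22.1 CPM for all tested genes. Tested genes in the lowest decile of vehicle level, which holds 1 member, had a median log2 fold change of 2.82. The part of level in these shares was not tested. The median log2 fold change (OA over vehicle) of the members was -0.11, beside 0.03 for all tested genes. Groups of libraries did not overlap in 38 of the 39 called members, and BRD3 was the exception, beside 99.6% of all called genes and 88.8% of all tested genes. Some families moved as one and others held genes that rose beside genes that fell, as the plot of all members shows.

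**Figure D1:**
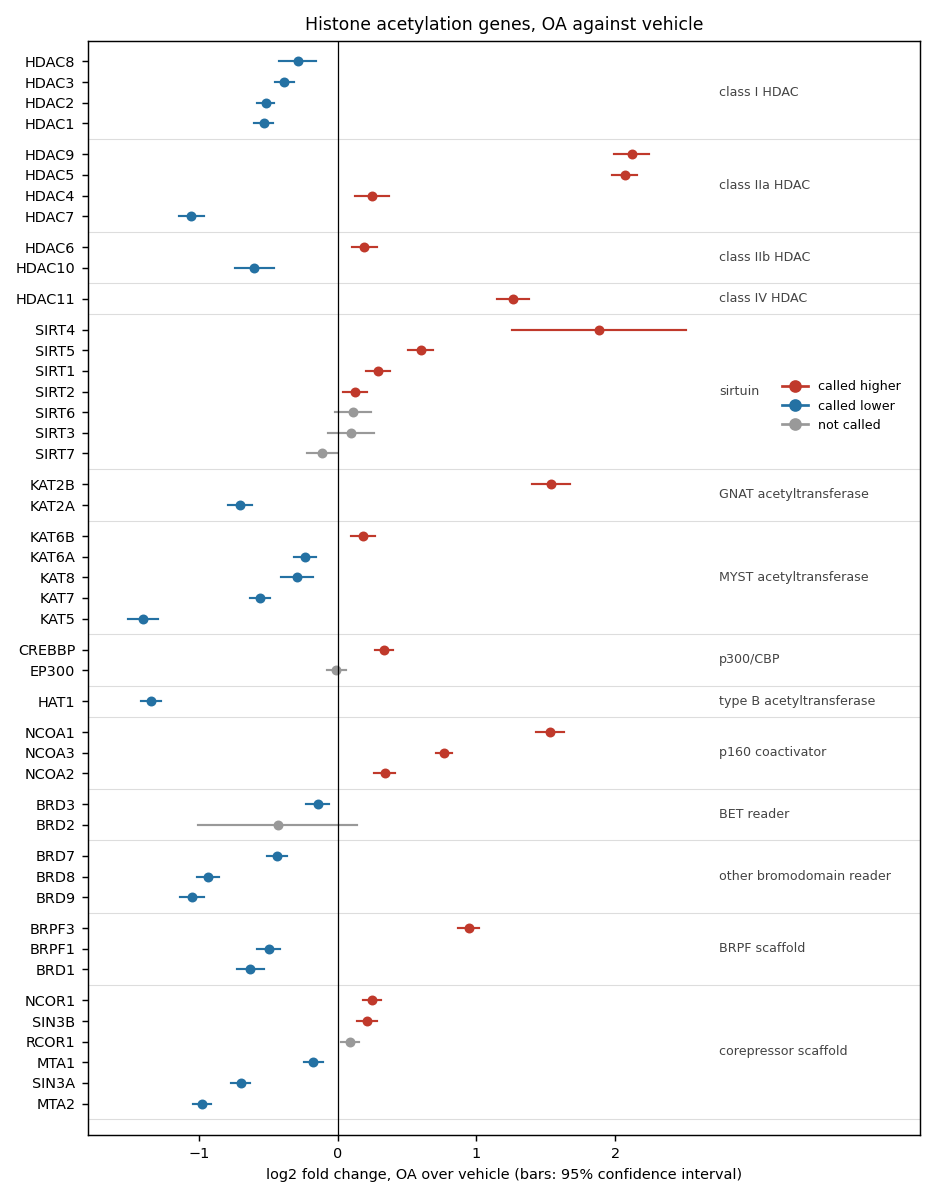
The log2 fold change of each of the 45 members (OA over vehicle, x axis) with its 95% confidence interval, grouped by family down the page. Class I HDACs all lie left of 0 and p160 coactivators all lie right of it, while class IIa HDACs run from -1.06 (HDAC7) to 2.12 (HDAC9).

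Scaling set part of this split. Relative to TMM, whose median over all genes was 0.03, upper quartile scaling moved that median to 0.26 and library totals moved it to 0.32, while DESeq2-type size factors gave 0.02. The median of the members was 0.12 under upper quartile scaling and 0.17 under totals, again below that of all genes. The members then split into 22 higher and 16 lower under upper quartile scaling, 25 higher and 16 lower under totals, and 17 higher and 21 lower under DESeq2-type factors. Among all called genes the share called higher was 51.3% under TMM, 62.6% under upper quartile scaling and 65.4% under totals. Of the 18 members called higher, 17 kept that call under all 4 scalings, and of the 21 called lower, 16 did. All values below are on the TMM scale unless said otherwise.

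The class I HDACs, which are the main nuclear deacetylases, were all called lower in OA under TMM, beside 41.1% of all tested genes. HDAC1, the most abundant HDAC gene per kilobase, had 105.4, 108.1 and 100.2 CPM in OA, against 150.0, 154.0 and 149.8 CPM in vehicle. The groups were well apart, and the log2 fold change was -0.53 (SE 0.033, adjusted p = 4.6e-12). Its close paralog HDAC2 fell by 0.52, and the ratio of HDAC1 to HDAC2 per kilobase was 2.80 ± 0.12 in OA and 2.83 ± 0.06 in vehicle (SD, n = 3 each). HDAC3, the deacetylase of the NCoR complex, fell by 0.38. HDAC8, which acts on the cohesin subunit SMC3, was at -0.29 and called under TMM, but it was not called under upper quartile scaling (-0.06) or totals (-0.0022). The 4 genes summed to 100.7 ± 2.28 CPM per kb in OA and 140.5 ± 1.45 CPM per kb in vehicle (SD, n = 3 each), and HDAC1 made up 49.7% of the sum in OA and 51.5% in vehicle. The class as a whole was thus lower while its make-up moved little. Under library totals the sums were 111.1 CPM per kb in OA and 127.3 CPM per kb in vehicle. The class had a median vehicle level of 120.9 CPM, against 22.1 CPM for all tested genes. HDAC1, HDAC2 and HDAC3 lay at -0.08, 0.11 and 0.07 from the median log2 fold change of all tested genes in their decile of vehicle level. HDAC8 lay at -0.35 from that of its decile. The part of level in these falls was not tested.

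The class IIa HDACs changed in make-up more than in sum. HDAC5 (chromosome 17, 44076753 to 44123646 on hg38) had 64.0, 67.6 and 65.4 CPM in OA, against 15.6, 15.2 and 16.3 CPM in vehicle. It rose 4.19-fold (log2 2.07, SE 0.044, adjusted p = 1.9e-19). HDAC9, on chromosome 7 (18086942 to 19002414), had 31.0, 28.7 and 28.5 CPM in OA, against 7.19, 6.50 and 6.56 CPM in vehicle. All OA libraries were above all vehicle libraries for both genes, and HDAC9 rose 4.34-fold (log2 2.12, SE 0.061, adjusted p = 2.24e-17). HDAC7, on chromosome 12 (47782711 to 47819980), moved the other way, with 29.1, 30.2 and 28.5 CPM in OA, against 63.0, 61.9 and 57.4 CPM in vehicle. Its log2 fold change was -1.06 (SE 0.043, adjusted p = 5.63e-15). HDAC4 was called higher with a small change of 0.25.

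Per kilobase, the class IIa sum was 23.8 ± 0.50 in OA and 19.7 ± 0.67 in vehicle (SD, n = 3 each). Under library totals the sum was 26.22 CPM per kb in OA and 17.85 CPM per kb in vehicle, or 1.47 times, against 1.2 times under TMM. HDAC7 made up 28.6% of it in OA and 71.7% in vehicle, whereas HDAC5 made up 51.9% in OA and 15.0% in vehicle. HDAC5 was therefore the most abundant class IIa transcript in OA and HDAC7 in vehicle. HDAC9 held 8.68% in OA and 2.40% in vehicle, and HDAC4 held 10.8% in OA and 10.9% in vehicle. The ratio of HDAC5 to HDAC7 was 1.78, 1.81 and 1.85 in OA libraries, against 0.1995, 0.1985 and 0.229 in vehicle libraries. Such ratios and shares within a library do not depend on the scaling. The bars of family make-up show this exchange beside smaller ones in other families.

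**Figure D2:**
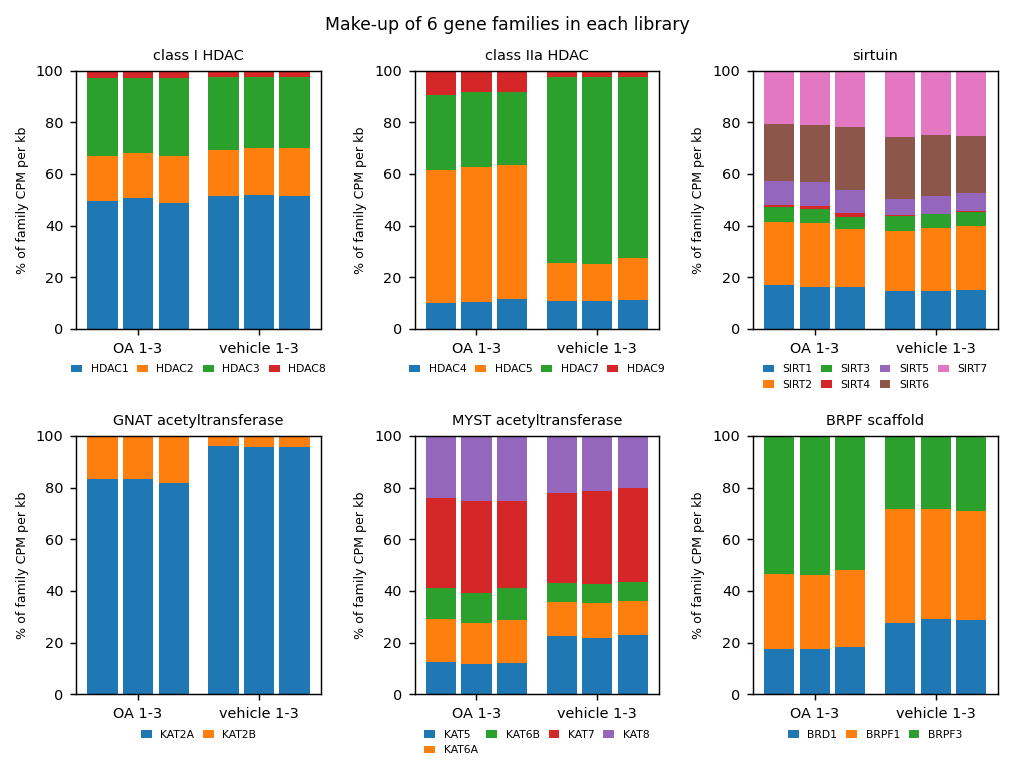
The share of each gene in the summed CPM per kb of its family (y axis, percent), as 1 stacked bar for each of the 3 OA and 3 vehicle libraries in 6 families. In the class IIa panel HDAC7 takes 28.6% in OA and 71.7% in vehicle on average, and the 3 bars of a group look alike in each panel.

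The remaining zinc-dependent HDACs were split. HDAC11, the class IV enzyme, which removes long fatty acyl groups from lysine, had 25.3, 26.3 and 26.1 CPM in OA, against 11.4, 10.2 and 10.7 CPM in vehicle. This gene on chromosome 3 (13480165 to 13506424) rose 2.40-fold (log2 1.26, SE 0.055, adjusted p = 1.77e-14). HDAC10, a polyamine deacetylase, had 10.6, 11.5 and 11.3 CPM in OA, against 18.4, 15.7 and 16.4 CPM in vehicle. It fell by 0.60 on the log2 scale, and HDAC6, the tubulin deacetylase, rose by 0.19. Over all 11 HDAC genes the sum was 142.9 ± 2.57 CPM per kb in OA and 175.1 ± 1.74 CPM per kb in vehicle (SD, n = 3 each), but under library totals the sums were 157.8 CPM per kb in OA and 158.6 CPM per kb in vehicle, and the libraries overlapped. HDAC1 alone held 35.0% of the TMM-scaled sum in OA and 41.3% in vehicle.

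Of the 7 sirtuins, 4 were called higher and 0 lower by edgeR's quasi-likelihood test, beside 43.3% of all tested genes higher and 41.1% lower, and 1 of the others, SIRT7, had an unadjusted p under 0.05. DESeq2 and limma-voom also called 0 sirtuins lower. The mitochondrial sirtuins SIRT4 and SIRT5 had the 2 largest values. SIRT4, on chromosome 12 (120302321 to 120313242), is low, with 0.663, 0.912 and 0.999 CPM in OA, against 0.278, 0.154 and 0.255 CPM in vehicle. These came from 36, 50 and 52 counts in OA and 15, 7 and 10 counts in vehicle, and the log2 fold change of 1.88 has a wide interval (95% CI 1.26 to 2.51). All tested genes in the lowest decile of vehicle level, which holds SIRT4, had a median of 2.82, and SIRT4 lay at -0.94 from it. SIRT5, which removes succinyl and other acidic groups, rose by 0.60. SIRT1, the nuclear deacetylase, rose by 0.29. SIRT2, a mainly cytoplasmic enzyme, was at 0.13 (adjusted p = 0.00879), a call that was lost with DESeq2-type factors (adjusted p = 0.02) and without any 1 of the libraries other than OA replicate 3 (adjusted p = 0.0187 to 0.0474).

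SIRT7, a nucleolar sirtuin and the most abundant one in vehicle per kilobase, had 21.9, 22.0 and 23.6 CPM in OA, against 25.5, 23.7 and 23.5 CPM in vehicle. The groups overlapped, and its log2 fold change was -0.11 under TMM (adjusted p = 0.0445) but 0.12 under upper quartile scaling and 0.17 under totals, and only totals gave a call. Without OA replicate 3 it was called lower (-0.16, adjusted p = 0.00956). SIRT3 (0.09, 95% CI -0.07 to 0.26) and SIRT6 (0.11, 95% CI -0.02 to 0.24) were not called under TMM and were called higher under upper quartile scaling and totals. Summed per kilobase, the sirtuins reached 60.9 ± 1.11 in OA and 55.2 ± 1.97 in vehicle (SD, n = 3 each). Under library totals the sums were 67.24 CPM per kb in OA and 49.98 CPM per kb in vehicle.

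Among the acetyltransferases, the paralogs KAT2A (GCN5) and KAT2B (PCAF), which take the same place in the SAGA and ATAC complexes, moved in opposite directions. KAT2B had 18.3, 17.9 and 18.2 CPM in OA, against 5.89, 6.41 and 6.48 CPM in vehicle, and it rose 2.91-fold (log2 1.54, SE 0.066, adjusted p = 1.4e-14). It lies on chromosome 3 at 20040032 to 20154404. KAT2A had 58.9, 58.4 and 53.0 CPM in OA, against 96.8, 91.4 and 89.3 CPM in vehicle, and it fell by 0.71. KAT2A nevertheless remained the more abundant of the pair, since KAT2B made up 17.1% of their summed level per kilobase in OA and 4.19% in vehicle. Their sum was 22.0 ± 1.06 CPM per kb in OA and 31.0 ± 1.18 CPM per kb in vehicle (SD, n = 3 each).

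In the MYST family, KAT5 (TIP60), the catalytic subunit of the TIP60 complex, showed the largest fall of any member. KAT5 had 10.8, 10.1 and 10.8 CPM in OA, against 28.3, 27.5 and 27.9 CPM in vehicle. Its log2 fold change was -1.40 (SE 0.052, adjusted p = 1.22e-15), or 0.379-fold. The gene lies on chromosome 11 (65712002 to 65719606), and 34.4% of its exon bases are shared with RNASEH2C on the opposite strand, whose reads could not be told apart without a known strand setting. RNASEH2C itself was also called lower, with 7.76 CPM in OA and 15.5 CPM in vehicle. KAT7 (HBO1), the most abundant of the family in vehicle, had 46.6, 47.9 and 46.8 CPM in OA, against 68.4, 70.7 and 69.2 CPM in vehicle, and fell by 0.56. KAT8 (MOF) was at -0.30, but its call was lost under upper quartile scaling (-0.07) and totals (-0.0098). KAT6A was at -0.24 under TMM, at -0.0086 under upper quartile scaling and at 0.05 under totals, without a call under the last 2, whereas KAT6B rose by 0.18. The family summed to 37.2 ± 0.56 CPM per kb in OA and 53.3 ± 0.91 CPM per kb in vehicle (SD, n = 3 each).

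HAT1, the type B enzyme that acetylates newly made histone H4 before it reaches chromatin, was the second most abundant member per kilobase in vehicle. It had 42.2, 41.5 and 44.3 CPM in OA, against 106.7, 108.4 and 110.3 CPM in vehicle. This gene on chromosome 2 (171922425 to 171983686) fell to 0.394-fold (log2 -1.35, SE 0.035, adjusted p = 4.7e-18), with the groups far apart.

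The pair EP300 and CREBBP, large acetyltransferases recruited by many transcription factors, diverged slightly. EP300 had 99.4, 100.6 and 105.4 CPM in OA, against 104.1, 102.4 and 101.1 CPM in vehicle. The groups overlapped, and the log2 fold change was -0.01 under TMM (95% CI -0.08 to 0.06) but 0.22 under upper quartile scaling and 0.27 under totals, both called. CREBBP rose by 0.33. The ratio of CREBBP to EP300 per kilobase, which is free of scaling, was 1.13 ± 0.015 in OA and 0.893 ± 0.015 in vehicle (SD, n = 3 each), so CREBBP was the more abundant of the pair in OA and EP300 in vehicle.

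The 3 p160 coactivators, which bind nuclear receptors and bring p300 and CBP to them, were all called higher in OA, beside 43.3% of all tested genes. NCOA1, on chromosome 2 (24584477 to 24770701), had 34.9, 36.2 and 35.1 CPM in OA, against 12.1, 12.6 and 12.1 CPM in vehicle, and rose 2.89-fold (log2 1.53, SE 0.048, adjusted p = 9.36e-17). NCOA3 was the most abundant of them, with 203.4, 198.3 and 201.8 CPM in OA, against 119.4, 118.8 and 116.5 CPM in vehicle. It rose by 0.77, and NCOA2 rose by 0.34. Together they reached 39.1 ± 0.15 CPM per kb in OA and 23.6 ± 0.14 CPM per kb in vehicle (SD, n = 3 each), the only acetyltransferase family of 2 or more genes in which every gene was called higher.

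**Figure D3:**
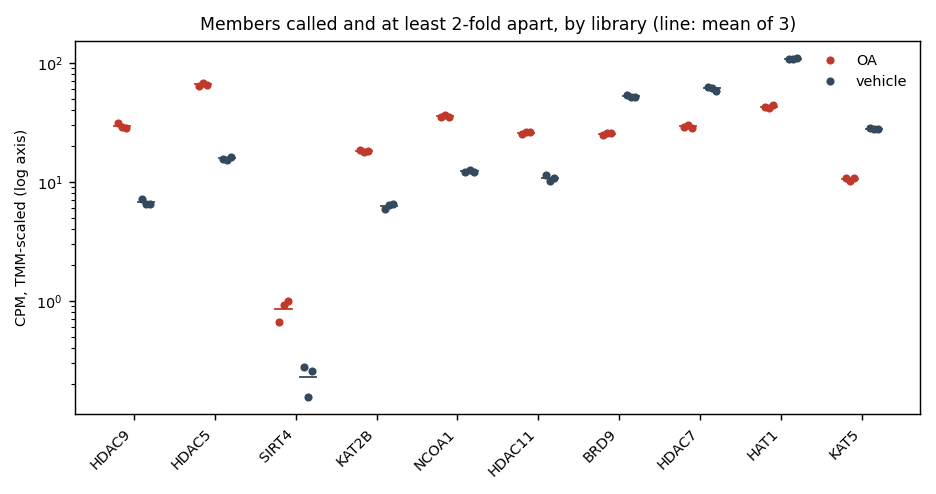
TMM-scaled CPM (y axis, log scale) in each library for the 10 members called and at least 2-fold apart, with OA left of vehicle for each gene and a line at the mean of 3 libraries. The libraries of the 2 groups do not overlap for any of the 10 genes, and SIRT4 is the only one of the 10 under 1 CPM in both groups.

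Readers of acetylation were mostly lower in OA, with 6 of 8 called lower and 1 called higher, beside 41.1% and 43.3% of all tested genes. Their median log2 fold change was -0.47, beside 0.03 for all tested genes. Under library totals the medians were -0.18 and 0.32, and BRD3, 1 of the 6, was called higher. The readers had a median vehicle level of 50.1 CPM, against 22.1 CPM for all tested genes. BRD2, 1 of the 8, has a level that cannot be read, as described below. BRD9, a SWI/SNF subunit, had 24.7, 25.8 and 25.5 CPM in OA, against 53.8, 51.7 and 51.5 CPM in vehicle. Its log2 fold change was -1.05 (SE 0.041, adjusted p = 2.61e-15), and it lies on chromosome 5 at 863735 to 892824. BRD8, a subunit of the TIP60 complex, fell by 0.93. BRD7, a subunit of the PBAF form of SWI/SNF, had 60.2, 58.3 and 58.5 CPM in OA, against 79.7, 80.8 and 78.9 CPM in vehicle, and fell by 0.44. The 3 genes summed to 41.8 ± 0.26 CPM per kb in OA and 66.8 ± 0.15 CPM per kb in vehicle (SD, n = 3 each).

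The BET proteins bind acetylated histones through paired bromodomains. BRD3 had 79.6, 80.6 and 87.8 CPM in OA, against 93.7, 92.7 and 87.6 CPM in vehicle. OA replicate 3 overlapped vehicle replicate 3, and the log2 fold change was -0.15 under TMM (adjusted p = 0.00188) but 0.08 under upper quartile scaling and 0.14 under totals, which called it higher. The TMM call was lost without OA replicate 2, vehicle replicate 1 or vehicle replicate 2 (adjusted p = 0.0123, 0.012 and 0.0144). BRD2 was at 0.403 CPM in OA and 0.536 CPM in vehicle and was not called (-0.43, 95% CI -1.01 to 0.14). Its exons in the table also lie on 6 alternate contigs and reads with more than 1 position were left out, so this level cannot be read as the level of BRD2.

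Scaffolds of the BRPF family hold MYST enzymes on histone H3, and here too genes of 1 family moved in opposite directions. BRPF3 rose by 0.94 to 76.7, 81.2 and 76.6 CPM in OA, against 40.5, 40.4 and 41.0 CPM in vehicle. BRPF1 had 33.4, 34.0 and 34.3 CPM in OA, against 49.6, 47.3 and 46.6 CPM in vehicle, and fell by 0.50, and BRD1 fell by 0.63. BRPF3 thus made up 53.1% of the family in OA and 28.7% in vehicle. The summed level was nearly level under TMM, at 24.5 ± 0.58 CPM per kb in OA and 23.5 ± 0.25 CPM per kb in vehicle (SD, n = 3 each), and at 27.0 and 21.3 CPM per kb under totals.

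Corepressor scaffolds tie class I HDACs to transcription factors. MTA2, a NuRD subunit, had 97.2, 98.0 and 98.8 CPM in OA, against 197.5, 192.1 and 189.2 CPM in vehicle, and its log2 fold change was -0.98 (SE 0.030, adjusted p = 4.84e-17). Its paralog MTA1 was at -0.18 under TMM, called lower, but at 0.05 under upper quartile scaling and at 0.11 under totals, which called it higher. MTA1 was 1.44 ± 0.024 times as abundant as MTA2 per kilobase in OA and 0.826 ± 0.017 times in vehicle (SD, n = 3 each). The SIN3 scaffolds moved apart too, as SIN3A fell by 0.70 and SIN3B rose by 0.21. NCOR1 rose by 0.25, and RCOR1, the core of the CoREST complex, was at 0.09 (adjusted p = 0.0115), called higher under upper quartile scaling (0.32) and totals (0.37).

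The plot of the smaller changes under 4 scalings shows which directions rest on the choice. EP300, SIRT7, BRD3, MTA1 and KAT6A are the 5 members that change sign between TMM and library totals.

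**Figure D4:**
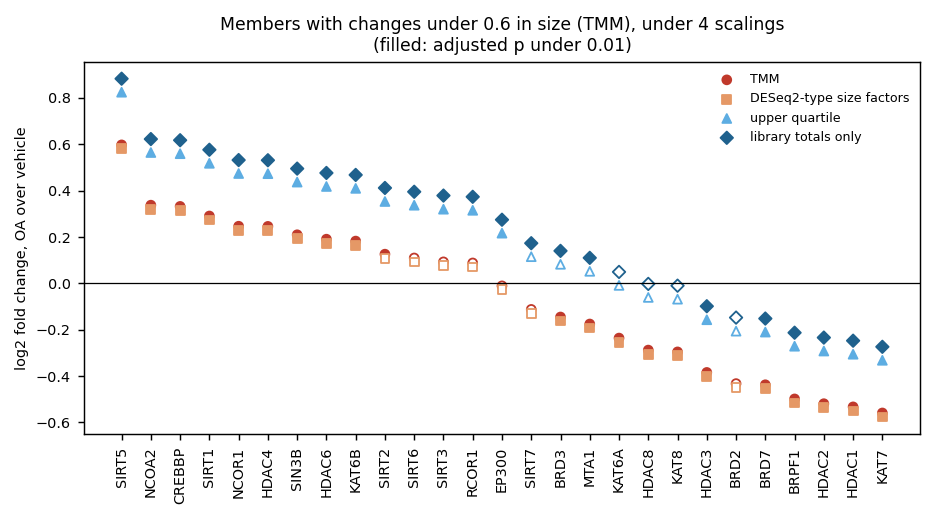
The log2 fold change (OA over vehicle, y axis) of the members whose TMM value is under 0.6 in size, under 4 scalings, with filled symbols where the adjusted p is under 0.01. Upper quartile and totals values sit above the TMM and DESeq2-type values for every gene shown, and 5 genes cross 0 from TMM to totals.

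The bases before the start of transcription are shown for members that moved at least 2-fold and have a single start in the RefSeq promoter table (GRCh38.p14), and for KAT2A as the paralog of KAT2B. A window of 250 bases before the start was found for 40 of the 45 members, 24 of them with 1 window, and HDAC5, SIRT7, KAT6A, KAT8 and NCOA2 were without one. Positions count back from the start. Of each window, only the bases that lie outside the gene as the count table draws it are printed, from -250, in lower case with motif matches in capitals.
HDAC7 (chr12:47819981-47820153, minus strand, fell): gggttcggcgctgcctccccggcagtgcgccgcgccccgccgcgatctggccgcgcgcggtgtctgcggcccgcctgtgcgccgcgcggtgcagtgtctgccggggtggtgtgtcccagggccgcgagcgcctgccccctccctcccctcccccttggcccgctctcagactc
HDAC11 (chr3:13480056-13480164, plus strand, rose): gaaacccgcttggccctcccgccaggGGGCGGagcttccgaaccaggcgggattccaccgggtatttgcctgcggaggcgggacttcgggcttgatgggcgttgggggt
KAT2A (chr17:42121368-42121617, minus strand, fell): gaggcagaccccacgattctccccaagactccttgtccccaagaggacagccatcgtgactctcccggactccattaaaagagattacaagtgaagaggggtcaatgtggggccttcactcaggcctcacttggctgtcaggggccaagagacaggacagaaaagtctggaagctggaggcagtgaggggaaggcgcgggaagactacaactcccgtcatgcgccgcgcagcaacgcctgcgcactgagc
HAT1 (chr2:171922211-171922424, plus strand, fell): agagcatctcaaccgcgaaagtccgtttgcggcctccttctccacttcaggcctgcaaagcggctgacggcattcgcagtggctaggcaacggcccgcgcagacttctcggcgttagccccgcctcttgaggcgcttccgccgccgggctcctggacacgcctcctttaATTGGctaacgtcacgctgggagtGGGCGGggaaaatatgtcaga

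Motifs were searched on both strands. The GC box (GGGCGG), bound by SP family factors, was matched 5 times in the whole HDAC11 window, with 2 overlaps between matches, and 3 times in that of KAT2B, which lies wholly inside the gene as the count table draws it. HDAC7 and KAT2A had no match to any motif searched. The HAT1 window held 1 CCAAT box (CCAAT) at -81, 1 GC box at -57 and 1 ETS site (CCGGAAG) at -25. The KAT5 window, also inside the drawn gene, held 1 E-box (CACGTG) and 2 ETS sites. No shown window matched the E2F letters TTTNNCGC, the NRF1 site, the cyclic AMP element TGACGTCA or the YY1 letters AAGATGGC.

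These letters were common elsewhere. A GC box was in 57.4% of the 68 member windows, 62.2% of windows of tested genes and 42.6% of all 35116 windows. A CCAAT box was in 23.5% of member windows, 32.3% of windows of tested genes and 32.0% of all windows, and an ETS site was in 14.7%, 13.0% and 8.52% in the same order. An E-box was in 4.41% of member windows, 8.08% of windows of tested genes and 6.34% of all windows. The E2F letters were in 7.35% of member windows, 8.03% of windows of tested genes and 5.92% of all windows, and the NRF1 site was in 7.35%, 8.02% and 5.07%. The cyclic AMP element was in 1.47%, 2.34% and 1.65%, and the YY1 letters were in 1.47%, 1.77% and 1.36%. A match describes letters only, and the GC box was in the windows of HDAC11 and KAT2B, which rose, and in that of HAT1, which fell.

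Partners of these enzymes were taken from 12 lists of genes. Over all of them, 49 of 174 tested genes (28.2%) were called higher and 92 (52.9%) lower, beside 43.3% higher and 41.1% lower among all tested genes, with a median of -0.21. Their median vehicle level was 54.4 CPM, against 22.1 CPM for all tested genes. In the seventh, eighth and ninth deciles of vehicle level, all tested genes had medians of -0.17, -0.32 and -0.45. The part of level in the partner counts was not tested. Under library totals the partners split into 82 higher and 62 lower, with a median of 0.08. The counts of each list below stand beside the same background. NuRD partners were called higher in 2 and lower in 8 of 11 genes, with a median of -0.63 and a median vehicle level of 103.6 CPM. RBBP4, a histone chaperone shared by NuRD and SIN3, had 83.0 CPM in OA and 301.4 CPM in vehicle, and its log2 fold change was -1.86. RBBP7, its paralog, fell by 1.36. CHD5, a NuRD remodeller best known from neurons, rose by 3.48, with 36.5 ± 0.96 CPM in OA and 3.26 ± 0.042 CPM in vehicle (SD, n = 3 each). SIN3 partners, with a median vehicle level of 49.9 CPM, were called higher in 1 and lower in 10 of 13 genes, all by less than 2-fold.

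CoREST partners were called higher in 5 and lower in 6 of 11 genes under TMM, and in 6 and 4 under totals. KDM1A, the demethylase of that complex, fell by 1.06, while its subunit PHF21A rose by 1.70 and RCOR2, a paralog of RCOR1, rose by 3.36 to 7.16 CPM in OA, against 0.707 CPM in vehicle. NCoR/SMRT partners were called higher in 2 and lower in 3 of 7 genes under TMM, and in 5 and 1 under totals, and TBL1X, a subunit that binds histone tails, rose by 2.36.

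On the acetyltransferase side, TIP60 complex partners were called higher in 1 and lower in 8 of 13 genes. The ATPases RUVBL1 (-1.96) and RUVBL2 (-1.70), shared with the INO80 complex, fell beside the members KAT5 and BRD8. Partners in SAGA and ATAC were called higher in 6 and lower in 7 of 19 genes, with TAF6L at -1.62 and SUPT3H at 1.06. Partners of the MYST enzymes were called higher in 2 and lower in 8 of 16 genes, and HCFC1 (-2.33), MCRS1 (-1.66) and JADE2 (-1.37), a scaffold of the KAT7 complex, fell. The other bromodomain genes were called higher in 7 and lower in 18 of 28 genes, among them ATAD2, a replication-linked reader, at 63.7 CPM in OA and 369.2 CPM in vehicle (log2 -2.54). TRIM28 fell by 1.11, and CECR2 rose by 5.09, with 18.4 CPM in OA and 0.531 CPM in vehicle. Readers of the YEATS and double PHD types, which also bind longer acyl groups, were called higher in 3 and lower in 2 of 8 genes, and MLLT3 rose by 1.33. Counts of several lists moved with the scaling, and under library totals SIN3 partners were called higher in 2 and lower in 5 genes, TIP60 partners in 5 and 4, SAGA and ATAC partners in 13 and 5, MYST partners in 6 and 6, and the other bromodomain genes in 10 and 11.

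Changes of the members followed their level in vehicle, as changes of all genes did. Spearman's rho between the mean vehicle CPM and the log2 fold change was -0.47 over 44 members without BRD2 and -0.58 over all 14785 tested genes. The vehicle libraries enter both measures, and members share the libraries, so this is a description. By decile of vehicle level, all genes had a median log2 fold change of 0.39 in the fourth decile, which holds 4 members, and -0.45 in the ninth, which holds 12. Of the members, HDAC5 lay farthest above the median of its decile, by 2.01, followed by HDAC9 (1.73) and NCOA1 (1.47), and KAT5 lay farthest below it (-1.31). Exon length and log2 fold change had a Spearman's rho of 0.40 over the 44 members and 0.098 over all tested genes.

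**Figure D5:**
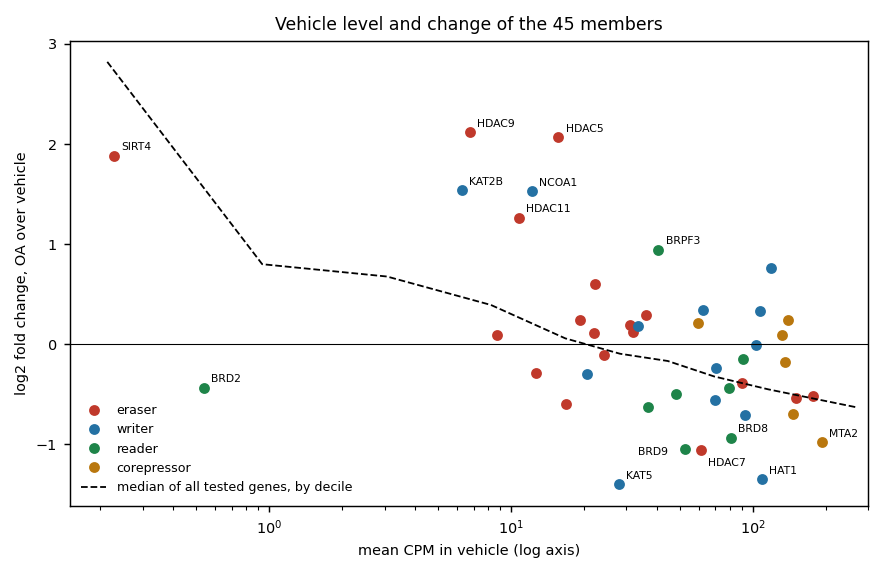
The mean CPM in vehicle (x axis, log scale) and the log2 fold change (OA over vehicle, y axis) of the 45 members, coloured by role, with the median of all tested genes by decile of vehicle level as a dashed line. HDAC5 (2.07) and HDAC9 (2.12) lie above the line, and KAT5 (-1.40) and HAT1 (-1.35) lie below it.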

How the data were processed

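Reads of MCF-12A libraries (3 OA, 3 vehicle, grouped by the labels) were mapped by the authors to hg38 with STAR 2.5, low-quality and multi-mapped reads were excluded, and genes were counted with featureCounts 1.5.1. Subread, edgeR 3.30.3, MultiQC 0.11.5 and FastQC are further tools in the submitters' processing notes. Sources differ on read length and on single or paired layout, and give no strand setting for the counting. The deposited values are raw counts without normalization, beside the authors' gene length, and the lowest total of a gene was 14 counts. Exons of 193 genes also lie on alternate contigs.

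The 45 members, their families and the 12 partner lists were chosen with earlier results of these data known. Counts were fitted in R 4.3.3 with edgeR 4.0.16 (filterByExpr, which removed 18 genes, TMM scaling, two-sided quasi-likelihood test, Benjamini-Hochberg over 14785 genes, false discovery rate 0.01). SE is the size of the log2 fold change over the square root of F. Steps were tested on simulated data in which most genes were unchanged, unlike these data, so that test did not cover the choice of scaling. Totals of 43049972 to 59935521 counts gave a median SE of 0.041 for members. Library values are given for members called with a log2 fold change of at least 1 in size and for the most abundant of each family in vehicle, and up to 3 called genes of that size with the smallest p are named per list. BRPF3, SIRT4 counts and the ratios were added after values were seen.

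Alternatives were other scalings, other filters, the likelihood ratio test used by the study, DESeq2 1.42.0, limma-voom (limma 3.58.1), a replicate block, omission of each library and a false discovery rate of 0.05. Pairs of libraries within a group differed beyond counting noise (lowest chi-square per degree of freedom 2.73). Protein sequences were not used here. Pseudogenes are named in the reference for HDAC1, KAT7, BRD7, BRD9 and NCOR1, so reads could be split or lost there.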

Additional observations from a re-analysis of the deposited data

How the results depend on the processing

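The counts of members called ran from 17 to 25 higher and from 16 to 22 lower over all alternatives, each within 1.5 times the reported 18 and 21. Leaving out 1 library gave 17 to 19 higher and 20 to 22 lower. The labels do not say whether same-numbered OA and vehicle libraries are pairs. Their correlations of deviations were -0.0268, 0.0165 and -0.104, and those of unlike-numbered libraries ran from -0.0913 to 0.111. With 3 libraries per group, these values cannot show whether the samples were paired. With a replicate block in the quasi-likelihood test, 17 members were higher and 21 lower, with SIRT2 the only call lost (adjusted p = 0.0193). Signs turned under upper quartile scaling for SIRT7 (0.1152), EP300 (0.2167), BRD3 (0.0824) and MTA1 (0.0521), and under library totals for SIRT7 (0.1734), KAT6A (0.0495), EP300 (0.2747), BRD3 (0.1403) and MTA1 (0.1102), because these settings shift all genes upward. EP300 was at 0.0128 when genes had to reach 1 CPM in 3 libraries and ran from -0.0473 to 0.0000 when libraries were left out in turn. Calls of HDAC8 and KAT8 were lost under upper quartile scaling and totals, and RCOR1 gained a call under the likelihood ratio test (adjusted p = 0.00912), limma-voom (0.00926), the 1 CPM filter (0.0021) and without OA replicate 3 (0.00923). The likelihood ratio test changed 1 of the 45 members' calls, DESeq2 1 and limma-voom 1. At least 2-fold lower members numbered 2 under upper quartile scaling and totals, against 4 under TMM. Under library totals the summed levels of the class IIb HDACs, the BET readers and all HDACs were 1.07, 1.10 and 0.994 times those of vehicle in OA, against 0.880, 0.905 and 0.816 under TMM. Partner counts differed by over 1.5 times under library totals for SIN3 (2 higher and 5 lower, against 1 and 10), NCoR/SMRT (5 higher and 1 lower, against 2 and 3), TIP60 (5 higher and 4 lower, against 1 and 8), SAGA and ATAC (13 higher, against 6), MYST partners (6 higher, against 2), other bromodomain genes (11 lower, against 18), YEATS and double PHD readers (1 lower, against 2, and 4 lower at a false discovery rate of 0.05) and class IIa partners (13 higher and 5 lower, against 8 and 9). Depth limits SIRT4, which was under 1 CPM in both groups.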

Other observations

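Genes that make or carry acetyl-CoA, the donor of histone acetyl groups, were called higher in 6 and lower in 9 of 15 tested genes, with a median log2 fold change of -0.75 under TMM and -0.46 under library totals. These are 40% and 60% of the list, beside 43.3% higher and 41.1% lower among all tested genes. The list had a median vehicle level of 86.7 CPM, against 22.1 CPM for all tested genes, and the part of level in its counts was not tested. ACLY, which makes acetyl-CoA from citrate outside the mitochondria, had 350.7, 354.6 and 360.6 CPM in OA, against 1040, 1041 and 1038 CPM in vehicle, and fell by 1.55. ACAT2, which joins acetyl-CoA units toward sterols, fell by 1.81, and DLAT, a subunit of pyruvate dehydrogenase, fell by 1.26. ACSS2, which makes acetyl-CoA from acetate, was at 0.81 and called higher, with 152 CPM in OA and 86.7 CPM in vehicle, and is named after its value was seen. Genes of NAD supply and use, on which the sirtuins depend, were called higher in 7 (46.7%) and lower in 5 (33.3%) of 15 tested genes, beside 43.3% and 41.1% of all tested genes. NMRK1, which phosphorylates nicotinamide riboside, rose by 1.72, with 38.7 ± 0.45 CPM in OA and 11.8 ± 0.40 CPM in vehicle (SD, n = 3 each). PARP1, a large consumer of NAD, had 146.8, 152.5 and 153.4 CPM in OA, against 564.8, 563.8 and 551.0 CPM in vehicle, and fell by 1.89, and NNMT fell by 1.19.

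Partners of the class IIa HDACs were called higher in 8 (40%) and lower in 9 (45%) of 20 tested genes, beside 43.3% and 41.1% of all tested genes, and in 13 and 5 under library totals. The 14-3-3 genes, whose proteins hold class IIa HDACs in the cytoplasm, included YWHAB (-1.77), YWHAH (-1.38) and YWHAQ (-1.11), all called lower. Of the 3 tested genes of the MEF2 transcription factors, which class IIa HDACs bind, MEF2A was called higher at 1.18 (110.1 CPM in OA, 48.8 CPM in vehicle) and MEF2C at 2.91 (2.18 CPM in OA, 0.281 CPM in vehicle), while MEF2D was called lower at -0.32 under TMM but not under library totals (-0.04). Of the listed kinases of class IIa HDACs, PRKD1 (1.68), CAMK1 (1.59) and CAMK2D (1.37) were called higher by at least 2-fold. PRKD2 (0.53), SIK3 (0.38) and PRKD3 (0.29) were called higher by less, and CAMK2G, CAMK4 and MARK3 were not called. SIK2 (-0.14) and MARK2 (-0.15) were called lower under TMM and higher under library totals. The MEF2 and kinase genes are named after their values were seen.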
